A study of Mus musculus with 6 samples.

Results

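The proximal sodium and bicarbonate transport genes were 9 genes taken by symbol from a table of 46095 genes: Slc9a3, Slc4a4, Car2, Car4, Car12, Car14, Car15, Atp1b1 and Aqp1. All 9 were present in the table, and 8 of them had enough counts to be tested, Car15 being the exception. RNA sequencing had been performed on PTECs, primary renal tubular epithelial cells, from kidneys of 10-week-old mice on a C57 background. Of the 6 libraries, 3 carried the label VHL-KO (numbered 1, 2 and 4) and 3 the label VHL-KO;SETD2-KO (numbered 2, 3 and 4). Mice of both groups carried Ksp-Cre and VHL fl/fl alleles, and those of the VHL-KO;SETD2-KO group carried Setd2 fl/fl alleles in addition, so that the comparison was for the loss of SETD2, a histone methyltransferase, on top of it. Ksp-Cre is driven by the promoter of Cdh16, a cadherin of tubule and collecting duct epithelium, and cells of other types keep their floxed alleles. The study isolated PTECs to raise the share of cells with Cre. How many proximal tubule cells lost the floxed alleles is not given in the sources used here. Each group was 3 mice by the study's description, while the labels do not tie a library to a mouse, so p-values measure the spread between these libraries.

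The proximal tubule takes back most of the bicarbonate and sodium that the glomerulus filters. A sodium-proton exchanger in the brush border secretes protons, a carbonic anhydrase on the luminal membrane turns the carbonic acid formed there into carbon dioxide and water, and a cytosolic carbonic anhydrase makes bicarbonate and a new proton inside the cell. Bicarbonate leaves with sodium across the basolateral membrane, the sodium pump on the same membrane keeps cell sodium low, and water follows through aquaporin channels. VHL is the ubiquitin ligase subunit that marks hypoxia-inducible factors (HIF) for destruction, and HIF is known to bind DNA at sites built around the letters ACGTG.

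The libraries held 11168552 to 17883466 counts. Levels are given as CPM, the counts-per-million scale with each library total multiplied by its TMM factor, an edgeR correction for composition, and 3 counts correspond to 0.168 to 0.269 unscaled CPM. Setd2 itself did not fall, at 71.4, 73.8 and 12.3 CPM in the VHL-KO libraries and 79.5, 57.2 and 89.5 CPM in the VHL-KO;SETD2-KO libraries (log2 fold change 0.52, SE 0.64, edgeR adjusted p = 0.787). Vhl was at 14.1, 12.8 and 25.8 CPM and at 14.4, 17.8 and 11.8 CPM in the same order. The lowest Setd2 level was that of VHL-KO replicate 4. The study itself reports reduced SETD2 in these mice by RT-qPCR and Western blot, and reduced H3K36me3 by staining. Which exons the floxed alleles lose is not given in the sources used here, and reads from remaining exons would still be counted, so groups are referred to by their labels. The library labelled VHL-KO replicate 4 stood apart, with Spearman rho of 0.717 to 0.765 to the other libraries across genes against 0.937 to 0.986 among the remaining pairs, and with 11.3% of counts from mitochondrially encoded genes against 25.9% to 36.4%. VHL-KO;SETD2-KO replicate 3 differed in another way, with 11704 counts of Xist, the X-inactivation transcript of female cells, against 0 to 4 in the other libraries. The labels do not give sex, and its part in the values of this library was not tested. For the transport genes and the pathway genes called here, values without VHL-KO replicate 4 or VHL-KO;SETD2-KO replicate 3 are given where they change a call or move a value by more than 1.5 times.

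Promoter sequences are shown for the 3 genes with the lowest fold changes (Car4, Aqp1 and Car14) and for Slc9a3 and Car14 because theirs held the HIF letters. Each is the 250 bases before the RefSeq start on GRCm38.p6, read 5′ to 3′ on the strand of the gene, with any ACGTG or its reverse complement CACGT in capitals.
Car4, chr11:84957504-84957753, plus strand: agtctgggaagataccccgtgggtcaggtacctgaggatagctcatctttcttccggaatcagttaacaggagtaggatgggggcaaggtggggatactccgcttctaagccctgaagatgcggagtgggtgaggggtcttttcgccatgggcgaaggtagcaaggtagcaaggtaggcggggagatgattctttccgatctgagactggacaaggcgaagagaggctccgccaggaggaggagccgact
Aqp1, chr6:55336049-55336298, plus strand: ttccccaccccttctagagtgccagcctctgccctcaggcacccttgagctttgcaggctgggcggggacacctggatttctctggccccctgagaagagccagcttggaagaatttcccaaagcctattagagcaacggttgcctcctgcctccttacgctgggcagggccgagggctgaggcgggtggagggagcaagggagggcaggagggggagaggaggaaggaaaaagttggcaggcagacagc
Car14, chr3:95904686-95904935, minus strand: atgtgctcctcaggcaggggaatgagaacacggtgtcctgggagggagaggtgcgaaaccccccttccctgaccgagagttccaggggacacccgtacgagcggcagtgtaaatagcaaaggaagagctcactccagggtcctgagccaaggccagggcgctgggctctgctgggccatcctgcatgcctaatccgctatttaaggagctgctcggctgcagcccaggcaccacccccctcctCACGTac
Slc9a3, chr13:74121163-74121412, plus strand: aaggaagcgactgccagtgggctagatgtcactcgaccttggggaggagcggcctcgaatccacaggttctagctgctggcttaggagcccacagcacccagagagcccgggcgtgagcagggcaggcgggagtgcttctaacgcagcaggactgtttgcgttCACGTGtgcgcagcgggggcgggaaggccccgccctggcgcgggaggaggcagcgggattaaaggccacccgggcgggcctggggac

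In these windows, ACGTG was found in 2 of the 8 genes that the RefSeq promoter table holds. Slc9a3 carried the palindrome CACGTG, which reads as ACGTG on both strands and was counted as 2 overlapping matches, 82 to 87 bases before its start. Car14 carried a single match on the opposite strand, 3 to 7 bases before its start. Of 32851 windows of 250 bases in the same table, 16.6% held the letters on either strand. The GC box letters GGGCGG were in the windows of Slc9a3 (3 matches), Atp1b1 (2), Aqp1 (1), Car12 (1) and Slc4a4 (1), against 32.7% of all windows. Slc4a4 had 2 windows, and its match was in that at chr5:88887010-88887259 (82.0% GC). The window at chr5:89027716-89027965 (48.8% GC) held none of the letters. The shares are per window, while the matches are listed per gene. The TATA box letters TATAAA were in no window of these genes and in 12.4% of all windows. A match is a description of letters and not of binding.

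The luminal carbonic anhydrase Car4 and the water channel Aqp1 were lower in every VHL-KO;SETD2-KO library than in any VHL-KO library, by 3.83-fold and 2.62-fold in the fitted means. Of the 8 tested genes, 7 had a log2 fold change below 0 and Atp1b1 was above 0, although Slc9a3, Slc4a4, Car2 and Car12 turned above 0 when libraries were scaled to proximal tubule markers and Car2 also when the 20 highest genes or mitochondrially encoded genes were left out of library sizes. In the fit scaled to proximal tubule markers, Car4, Car14 and Aqp1 were at -0.60, -0.18 and -0.09. The median over all tested genes was 1.23 in that fit. Relative to it Slc9a3, Slc4a4, Car2 and Car12 were at -0.52, -0.41, -0.05 and -0.41, and Atp1b1 was at 0.16. With TMM factors, the median log2 fold change of the 8 genes was -0.41, beside 0.0093 over the 14611 genes in the fit. With p under 0.05 before adjustment and a fold change of at least 1.5, edgeR's quasi-likelihood test called Car4 and Aqp1 lower, 2 of 8, where 4.68% of all tested genes were called lower. No transport gene was called higher, where the share of all tested genes was 2.65%. With Benjamini-Hochberg adjustment over all genes 0 of 8 were called, and the lowest adjusted p in edgeR was 0.625, where 0.00684% of all tested genes passed. Groups did not overlap for 2 of the 8, both lower, where 11% of all tested genes were separated downwards and 9.54% upwards. In bulk libraries, fewer cells of a type and less RNA per cell cannot be told apart.

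**Figure D1:**
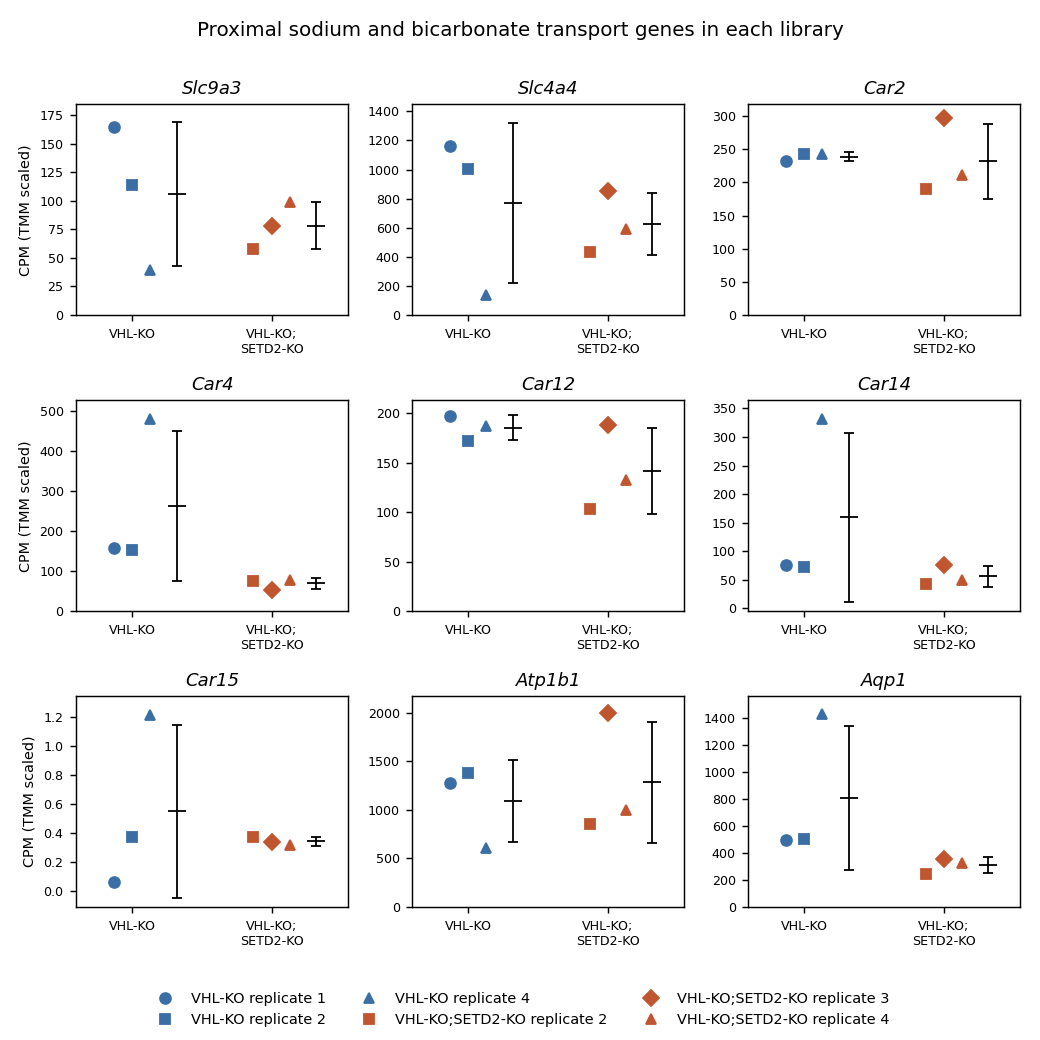
CPM (TMM scaled, linear axis) of the 9 transport genes in each of the 6 libraries, with the mean and SD of each group (n = 3) as black bars to the right of the points. The 3 points of Car4 and of Aqp1 under the VHL-KO;SETD2-KO label lie below the lowest VHL-KO point, and VHL-KO replicate 4 (blue triangle) is the highest library for Car4, Car14, Car15 and Aqp1 and the lowest for Slc9a3, Slc4a4 and Atp1b1.

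Slc9a3, the apical sodium-proton exchanger (NHE3) of the brush border (chr13:74121457-74169442, plus strand, GRCm38), was at 165, 114 and 39.5 CPM in VHL-KO replicates 1, 2 and 4. It was at 57.8, 78.0 and 98.9 CPM in VHL-KO;SETD2-KO replicates 2, 3 and 4. VHL-KO replicates 1 and 2 lay above the whole other group and VHL-KO replicate 4 lay below it, so the groups overlapped. The log2 fold change was -0.44 (SE 0.56, edgeR adjusted p = 0.796, 95% interval -1.72 to 0.84), which does not exceed the spread between libraries. Without VHL-KO replicate 4 it was -0.84 (SE 0.27, unadjusted p = 0.0215, edgeR adjusted p = 0.182), past the unadjusted threshold. Without VHL-KO replicate 1 it was 0.03.

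Slc4a4, the basolateral sodium bicarbonate cotransporter (NBCe1) through which bicarbonate leaves the proximal cell (chr5:88886818-89239653, plus strand), was at 1162, 1004 and 139 CPM in the VHL-KO libraries. The VHL-KO;SETD2-KO libraries were at 431, 853 and 593 CPM. As for Slc9a3, VHL-KO replicates 1 and 2 were the highest and VHL-KO replicate 4 the lowest of all 6 libraries. The log2 fold change was -0.30 (SE 0.74, edgeR adjusted p = 0.892, 95% interval -1.99 to 1.40). Leaving out VHL-KO replicate 4 gave -0.80 (SE 0.31, unadjusted p = 0.044, edgeR adjusted p = 0.233). Leaving out VHL-KO replicate 1 gave 0.13.

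Car4, carbonic anhydrase IV, is the membrane-anchored enzyme of the luminal brush border (chr11:84957786-84966044, plus strand). Its levels were 157, 153 and 479.9 CPM in the VHL-KO libraries and 75.9, 53.6 and 76.9 CPM in the VHL-KO;SETD2-KO libraries. Every VHL-KO library lay above every VHL-KO;SETD2-KO library, and VHL-KO replicate 4 was 3.10 times the mean of VHL-KO replicates 1 and 2. Group means were 263 ± 188 and 68.8 ± 13.2 CPM (SD, n = 3). The fitted level was 3.83-fold lower in the VHL-KO;SETD2-KO libraries (log2 fold change -1.94, SE 0.57, 95% interval -3.24 to -0.63, unadjusted p = 0.00901, edgeR adjusted p = 0.625). Without VHL-KO replicate 4 the log2 fold change was -1.17 (SE 0.19, unadjusted p = 8.84e-04, edgeR adjusted p = 0.0775), smaller in size and with a smaller error. The unadjusted call held with each of the 6 libraries left out in turn, over log2 fold changes of -2.19 to -1.17. It was lost when libraries were scaled to proximal tubule markers (-0.60, SE 0.50, edgeR adjusted p = 0.34). It was also lost with the replicate number as a block (-1.83, SE 1.27, unadjusted p = 0.151 in edgeR). DESeq2's Wald test on all 6 libraries gave an adjusted p of 0.0463, and without VHL-KO replicate 4 it gave 1.02e-04. Over the 18 alternatives the adjusted p ran from 1.02e-04 to 0.982.

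Car14, carbonic anhydrase XIV, is a transmembrane enzyme with its active site outside the cell (chr3:95897768-95904691, minus strand). It was at 75.5, 72.4 and 331 CPM in the VHL-KO libraries and at 42.0, 75.8 and 49.8 CPM in the VHL-KO;SETD2-KO libraries. VHL-KO replicate 4 was 4.47 times the mean of the other 2 libraries of its label, and VHL-KO;SETD2-KO replicate 3 reached the level of VHL-KO replicates 1 and 2, so the groups overlapped. The log2 fold change of -1.51 (SE 0.67, unadjusted p = 0.0541, edgeR adjusted p = 0.625) became -0.41 (SE 0.26, unadjusted p = 0.169, edgeR adjusted p = 0.419) without VHL-KO replicate 4. It passed the unadjusted threshold in edgeR without VHL-KO replicate 1 (-1.83) and without VHL-KO replicate 2 (-1.84). With all 6 libraries it passed with DESeq2's size factors in edgeR (-1.56, unadjusted p = 0.0494), without a filter on low counts in edgeR (-1.41, unadjusted p = 0.0312) and in DESeq2 (-1.51, unadjusted p = 0.0181). Car14 overlaps exons of Aph1a on the opposite strand, and the strand setting of the counting is not given in the sources used here.

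Car2, carbonic anhydrase II, is the abundant cytosolic enzyme (chr3:14886273-14900770, plus strand). It was the steadiest of the transport genes among VHL-KO libraries, at 232, 242 and 243 CPM, and VHL-KO replicate 4 did not stand apart for it. The VHL-KO;SETD2-KO libraries were at 189.7, 297 and 210.5 CPM, with replicate 3 above and replicates 2 and 4 below all VHL-KO libraries. The log2 fold change was -0.04 (SE 0.40, edgeR adjusted p = 0.977, 95% interval -0.95 to 0.87).

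Car12, carbonic anhydrase XII, is a transmembrane enzyme that also faces the outside of the cell (chr9:66713686-66766845, plus strand). VHL-KO libraries were at 197, 172 and 187 CPM, and VHL-KO;SETD2-KO libraries were at 103, 188 and 133 CPM. Replicates 2 and 4 of the VHL-KO;SETD2-KO label lay below every VHL-KO library and replicate 3 lay among them. The log2 fold change was -0.39 (SE 0.41, edgeR adjusted p = 0.755, 95% interval -1.32 to 0.54).

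Car15, a GPI-anchored carbonic anhydrase (chr16:17835276-17838364, minus strand), had 1, 4 and 13 counts in the VHL-KO libraries and 7, 6 and 5 counts in the VHL-KO;SETD2-KO libraries. That is 0.0606 to 1.21 CPM, near the 3 counts taken as the limit of detection, and no test was made. The gene overlaps exons of Gm20518 on the same strand, so its counts depend on how shared reads were assigned.

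Atp1b1, the beta subunit of the sodium pump, which is needed for the pump to reach the basolateral membrane (chr1:164437109-164458355, minus strand), was at 1278, 1382 and 604 CPM in the VHL-KO libraries. The VHL-KO;SETD2-KO libraries were at 854, 1997 and 1003 CPM. The highest library was VHL-KO;SETD2-KO replicate 3, at 2.15 times the mean of the other 2 of its label, and the lowest was VHL-KO replicate 4. The log2 fold change of 0.24 (SE 0.54, edgeR adjusted p = 0.878, 95% interval -1.01 to 1.49) changed sign without VHL-KO replicate 4 (-0.05) and without VHL-KO;SETD2-KO replicate 3 (-0.22). Atp1b1 overlaps exons of Nme7 on the opposite strand.

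Aqp1 is the water channel of the proximal tubule and thin descending limb, present in both the apical and the basolateral membrane (chr6:55336432-55348555, plus strand). It was at 496, 502 and 1430 CPM in the VHL-KO libraries and at 243, 357 and 327 CPM in the VHL-KO;SETD2-KO libraries. All VHL-KO libraries lay above all VHL-KO;SETD2-KO libraries, and VHL-KO replicate 4 was 2.86 times the mean of replicates 1 and 2. Group means were 809 ± 537 and 309 ± 59.1 CPM (SD, n = 3). The fitted level was 2.62-fold lower in the VHL-KO;SETD2-KO libraries (log2 fold change -1.39, SE 0.56, 95% interval -2.66 to -0.11, unadjusted p = 0.0364, edgeR adjusted p = 0.625). Without VHL-KO replicate 4 it was -0.69 (SE 0.21, unadjusted p = 0.0172, edgeR adjusted p = 0.169). The unadjusted call was lost without VHL-KO;SETD2-KO replicate 2, 3 or 4 (-1.22, -1.49 and -1.40, unadjusted p = 0.129, 0.0662 and 0.0948 in edgeR). It was also lost without the 20 highest genes in library sizes (-0.98, unadjusted p = 0.0589 in edgeR), without mitochondrially encoded genes (-0.90, unadjusted p = 0.0668 in edgeR) and with scaling to proximal tubule markers (-0.09, unadjusted p = 0.856 in edgeR). Over the 18 alternatives the adjusted p ran from 0.0182 to 0.982.

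Leaving out VHL-KO replicate 4 raised the number of transport genes called lower at the unadjusted threshold from 2 to 4 of 8 (Slc9a3, Slc4a4, Car4 and Aqp1), where 7.14% of all tested genes were then called lower and 8.29% higher. None of the 8 passed the adjusted threshold in that fit. Leaving out VHL-KO;SETD2-KO replicate 3 as well, an alternative chosen after the values were seen, left groups of 2 libraries each, whose spread edgeR moderates across genes. In that fit 6 of 8 were called lower at the unadjusted threshold, where the share of all tested genes was 10.4%. The adjusted threshold was then passed by Slc4a4, Car4, Car12, Car14 and Aqp1 (log2 fold changes -1.08, -1.02, -0.65, -0.69 and -0.81, edgeR adjusted p = 0.0114, 0.00597, 0.0316, 0.0137 and 0.0182), 5 of 8, in a fit that called 2474 genes of 14732. Atp1b1 was at -0.52 in it (edgeR adjusted p = 0.048), below a fold change of 1.5.

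**Figure D2:**
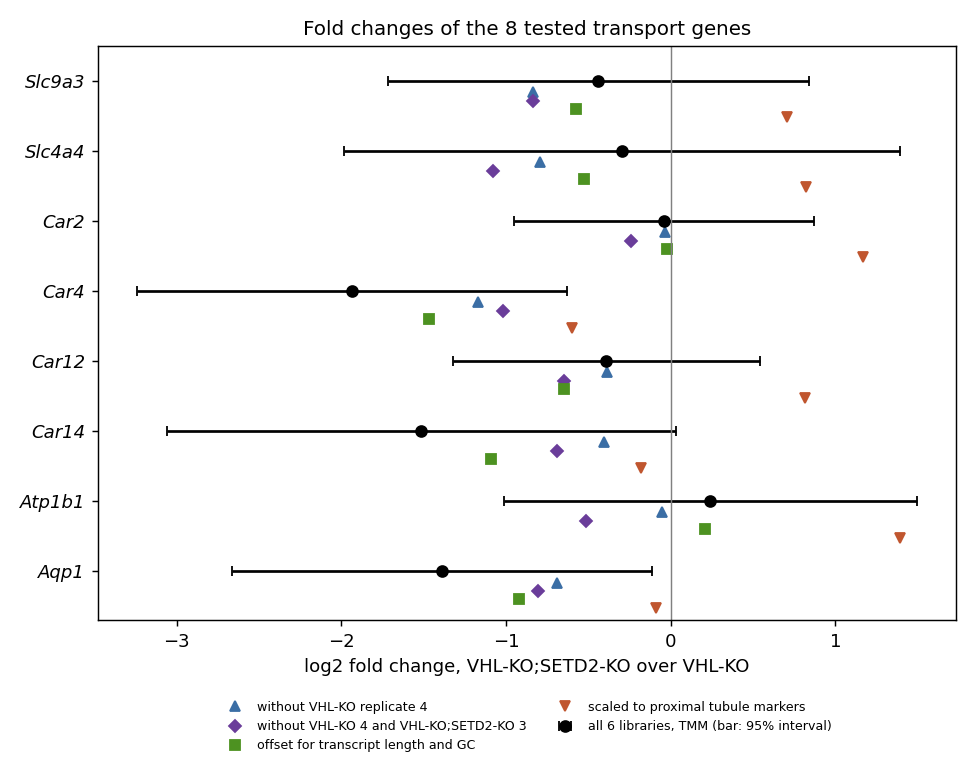
Log2 fold change, VHL-KO;SETD2-KO over VHL-KO, of the 8 tested genes with all 6 libraries (black points, bars are 95% intervals) and, below each, under 4 alternatives. The intervals of Car4 and Aqp1 alone lie wholly below 0, and scaling to proximal tubule markers (orange) moves every gene to the right, with Slc9a3, Slc4a4, Car2, Car12 and Atp1b1 above 0 and Car4, Car14 and Aqp1 below it. That scaling also puts the median of all tested genes at 1.23.

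The deviation of VHL-KO replicate 4 ran in opposite directions among these genes. It had 7.81-fold less Slc4a4, 3.53-fold less Slc9a3 and 2.20-fold less Atp1b1 than the mean of VHL-KO replicates 1 and 2, and more Car14, Car4 and Aqp1, while Car2 (1.03 times) and Car12 (1.01 times) were level. Slc4a4 and Slc9a3 have the longest transcripts of the 8, at 7931 and 5118 bases, and Car4 and Car14 the shortest, at 1256 and 1709 bases. Over all tested genes with a known length, the median log2 difference of this library from the other 2 was 0.96 in the shortest tertile of transcripts, 0.08 in the middle and -1.16 in the longest. By GC content of the transcript it was -2.03 in the lowest tertile, 0.07 in the middle and 1.44 in the highest. Slc4a4 is in the lowest GC tertile (45.9%), Aqp1 in the highest (54.9%) and the other tested genes in the middle (48.9% to 51.4%). With an offset for length and GC content in each library, also chosen after the values were seen, Car4 was at -1.47 (SE 0.33, unadjusted p = 0.00253, edgeR adjusted p = 0.183), Aqp1 at -0.92 (SE 0.27, unadjusted p = 0.0103, edgeR adjusted p = 0.214) and Car14 at -1.09 (SE 0.47, unadjusted p = 0.0504, edgeR adjusted p = 0.312).

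**Figure D3:**
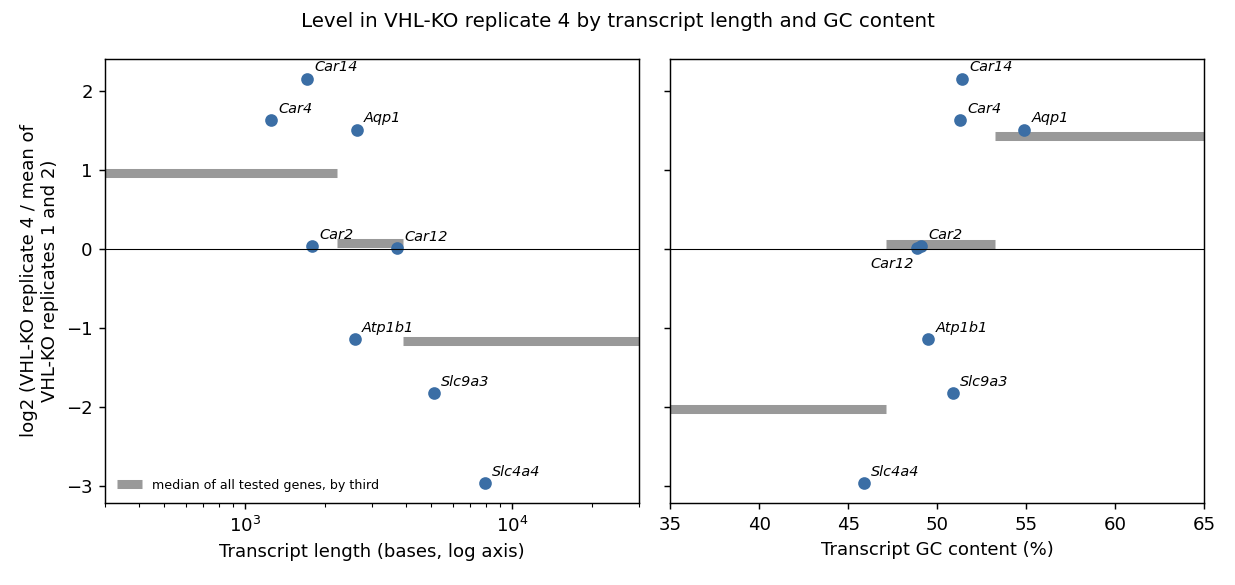
Log2 ratio of VHL-KO replicate 4 to the mean of VHL-KO replicates 1 and 2 for the 8 tested genes, against transcript length in bases (left, log axis) and transcript GC content in percent (right), with grey bars for the median over all tested genes in each tertile. The long transcripts of Slc4a4 and Slc9a3 lie below 0 and the short ones of Car4 and Car14 above it, on the same side as the tertile medians, while the short Car2 lies near 0 and, in the middle tertile of length, Aqp1 lies above 0 and Atp1b1 below it.

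Per kilobase of the principal transcript, which allows levels of different genes to be compared, Atp1b1 was the highest of the 9 genes, with a mean over all libraries of 460 CPM per kb (234 to 774). It was followed by Aqp1 at 213 (92.6 to 544), Car2 at 132 (106 to 166), Car4 at 132 (42.7 to 382), Slc4a4 at 87.9 (17.5 to 147), Car14 at 63.0 (24.6 to 194), Car12 at 44.0 (27.7 to 53.0), Slc9a3 at 18.0 (7.71 to 32.2) and Car15 at 0.346 (0.0472 to 0.945) CPM per kb. The ranges of all neighbours in this order overlapped except those of Slc9a3 and Car15. Within libraries, Car12 was above Slc9a3 in 6 of 6 and Atp1b1 above Aqp1 in 5 of 6, the exception being VHL-KO replicate 4. Car4 was above Slc4a4 in 2 of 6 and Car14 above Car12 in 1 of 6, so that the order of these means rests on few libraries. Car4 was above Car2 in the VHL-KO means (210 and 134 CPM per kb) through VHL-KO replicate 4 alone, and Car2 was the higher in the other 5 libraries. In the VHL-KO;SETD2-KO means Car2 (130) was above Car4 (54.8) and Aqp1 (118).

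The transport genes were next set against the 12 markers of the proximal tubule, the segment their list is named for, although they are not all confined to it. Car2 is also abundant in intercalated cells and Atp1b1 in the thick ascending limb and distal convoluted tubule. The cell types behind the counts of each transport gene, Car12 among them, were not tested. The proximal tubule markers were clearly present, with summed levels of 21600 to 28000 CPM in VHL-KO libraries and 9090 to 10800 CPM in VHL-KO;SETD2-KO libraries, which did not overlap. All 12 were tested and 11 had a log2 fold change below 0, with a median of -1.08. In edgeR, Slc34a1, Slc22a6, Slc13a3 and Hnf4a were called lower at the unadjusted threshold and none passed the adjusted threshold. That is 4 of 12, where 4.68% of all tested genes were called lower. DESeq2's Wald test called 7 of 12 lower, where the share was 4.44%, and 1 marker passed its adjusted threshold. The edgeR count was 8 of 12 without VHL-KO replicate 4, where the share was 7.14%. It was 1 of 12 without VHL-KO;SETD2-KO replicate 2 or replicate 4, where the shares were 1.37% and 1.78%. The median stayed between -1.24 and -0.96 with each library left out in turn. The most abundant were Slc34a1, the sodium phosphate cotransporter, at 4974, 4753 and 14170 against 2185, 2958 and 2440 CPM, and Acsm2, a medium-chain acyl-CoA synthetase, at 5711, 4870 and 1693 against 2169, 1121 and 2371 CPM. Groups separated for Slc34a1 and overlapped for Acsm2 through VHL-KO replicate 4. Without that library the log2 fold changes were -0.95 for Slc34a1, still called, and -1.49 for Acsm2, then called. Without VHL-KO;SETD2-KO replicate 3 the call of Hnf4a was lost (-1.14, unadjusted p = 0.0603 in edgeR).

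As a share of the summed proximal markers, Atp1b1 was 5.66%, 6.40% and 2.16% in the VHL-KO libraries and 9.40%, 18.5% and 9.44% in the VHL-KO;SETD2-KO libraries. Car2 was 1.03%, 1.12% and 0.868% against 2.09%, 2.74% and 1.98%. Car12 was 0.874%, 0.797% and 0.666% against 1.13%, 1.74% and 1.25%. For these 3 genes all VHL-KO;SETD2-KO libraries lay above all VHL-KO libraries, with differences of 1.46, 1.17 and 0.80 in mean log2 ratio. On this scale 63.2% of all tested genes were separated upwards in the same way, and the median difference over 14435 of them with counts in every library was 1.36. Aqp1 (2.20%, 2.32% and 5.10% against 2.68%, 3.30% and 3.08%) and Car14 (0.335%, 0.335% and 1.18% against 0.462%, 0.701% and 0.469%) differed by 0.02 and 0.07 with overlapping groups. Car4, at 0.694%, 0.710% and 1.71% against 0.835%, 0.495% and 0.724%, differed by -0.50. Slc9a3 (0.730%, 0.529% and 0.141% against 0.636%, 0.721% and 0.931%) and Slc4a4 (5.15%, 4.65% and 0.495% against 4.74%, 7.88% and 5.58%) differed by 0.99 and 1.38, with overlapping groups. Without VHL-KO replicate 4 the differences were 0.28 for both Slc9a3 and Slc4a4, -0.07 for Car4, 0.67 for Car14, 0.41 for Aqp1, 1.06 for Car2, 0.69 for Car12 and 0.97 for Atp1b1. Over the alternatives, the differences ran from -0.24 to 0.67 for Car14 and from -0.20 to 0.41 for Aqp1, and without Slc34a1 among the markers they were -0.10 and -0.15. In the edgeR fit with library sizes set to the proximal tubule markers, Car2 (1.17, SE 0.39, unadjusted p = 0.0166, edgeR adjusted p = 0.073) and Atp1b1 (1.39, SE 0.57, unadjusted p = 0.0397, edgeR adjusted p = 0.101) were called higher at the unadjusted threshold, 2 of 8, where 44.4% of all tested genes were called higher. None of the 8 passed the adjusted threshold in that fit. The median over all genes was 1.23 in it, relative to which Car2 was at -0.05 and Atp1b1 at 0.16.

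**Figure D4:**
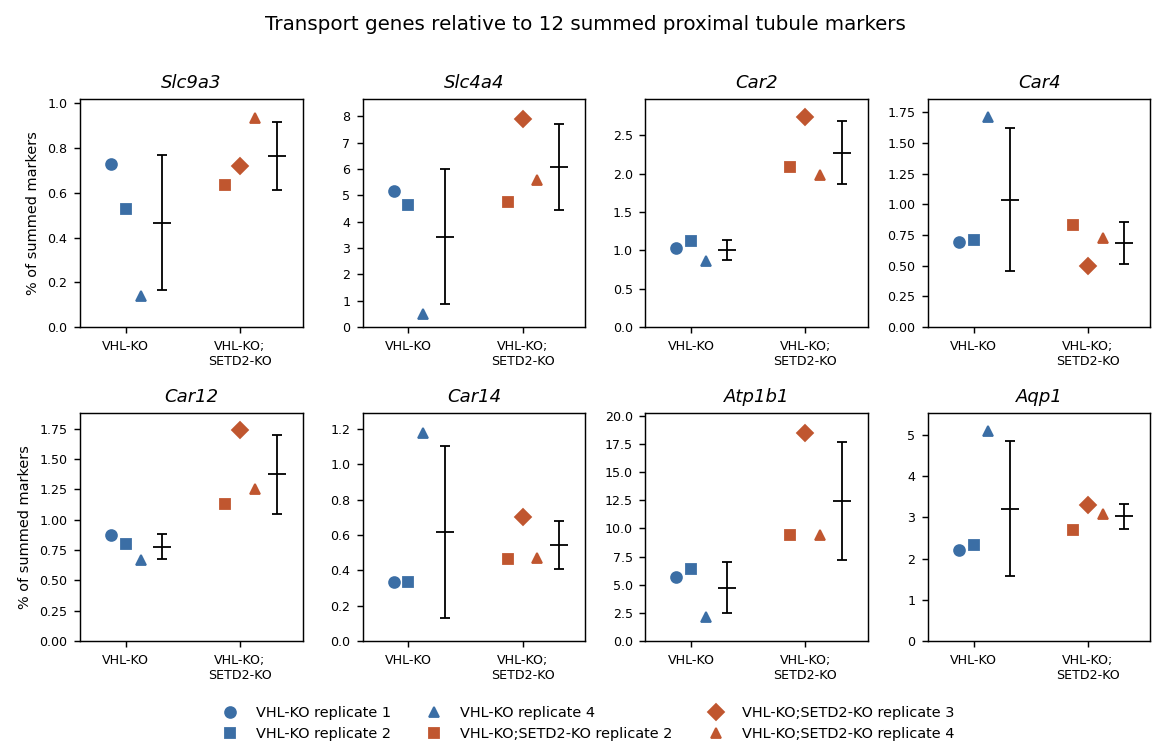
Counts of each tested gene as a percentage of the summed counts of 12 proximal tubule markers in each of the 6 libraries, with the mean and SD of each group (n = 3). Car2, Car12 and Atp1b1 are higher in all VHL-KO;SETD2-KO libraries, while the groups of Slc9a3, Slc4a4, Car4, Car14 and Aqp1 overlap.

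Markers of other kidney cells were summed in each library. All 6 podocyte markers had a log2 fold change above 0 (summed 1460 to 2130 CPM in VHL-KO and 2000 to 4920 CPM in VHL-KO;SETD2-KO libraries), as did 5 of 6 endothelial markers (1110 to 1650 and 1290 to 3840 CPM) and all 8 intercalated cell markers (34.8 to 119 and 107 to 283 CPM), with the sums of both labels overlapping in each case. At the unadjusted threshold 3 podocyte, 3 intercalated cell and 0 endothelial markers were called higher, where the share of all tested genes was 2.65%, and none passed the adjusted threshold in edgeR. No podocyte marker was called without VHL-KO;SETD2-KO replicate 2 or replicate 4, no intercalated cell marker without VHL-KO;SETD2-KO replicate 3, and 3 endothelial markers were called higher without the latter. In the fits without VHL-KO;SETD2-KO replicates 2, 3 and 4, the shares of all tested genes called higher were 1.19%, 2.37% and 1.24%. Of the other lists, 4 of 6 macrophage and leukocyte markers were below 0. In edgeR C1qa and C1qb were called lower, 2 of 6, where 4.68% of all tested genes were called lower. That count was 4 without VHL-KO replicate 1 and 1 without VHL-KO replicate 4, where the shares were 6.49% and 7.14%. It was 0, 1 and 0 without VHL-KO;SETD2-KO replicates 2, 3 and 4, where the shares were 1.37%, 2.2% and 1.78%. All 5 tested erythroid markers were below 0 with none called, and 2 of 5 were below 0 without VHL-KO replicate 4. In the thick ascending limb list Kcnj1 was called higher and Cldn10 lower in edgeR. Calb1 was called higher in the distal convoluted tubule list, and Spp1 higher and Havcr1 lower in the tubular injury list. None of these lists had a gene called higher without VHL-KO replicate 1 or VHL-KO;SETD2-KO replicate 3. No tubular injury gene was called higher without VHL-KO replicate 2 or 4. With 1 library left out, a thick ascending limb marker was called lower only without VHL-KO replicate 4. With all 6 libraries edgeR called no principal cell or stromal marker. Without VHL-KO replicate 4 it called 3 of 7 principal cell and 2 of 6 stromal markers higher, where the share was 8.29%. DESeq2's Wald test called 1 principal cell marker lower. VHL-KO;SETD2-KO replicate 3, which had the highest Atp1b1, Slc4a4, Car12, Car14, Car2 and Aqp1 of its label, also had the highest sums of its label for proximal tubule (10800 CPM), thick ascending limb (3680 CPM), distal convoluted tubule (2250 CPM), principal cell (286 CPM) and intercalated cell (283 CPM) markers, and the lowest for podocyte (2000 CPM), endothelial (1290 CPM) and macrophage and leukocyte (128 CPM) markers. Its tubular injury sum of 1210 CPM was 1196 CPM of Spp1, which encodes osteopontin. VHL-KO replicate 4 had the highest sum of its label for 9 of the 11 lists, among them proximal tubule (28000 CPM), thick ascending limb (3950 CPM), principal cell (615 CPM) and erythroid (1880 CPM) markers, and the lowest for endothelial markers (1110 CPM) and tubular injury genes (76.7 CPM). No marker on any of the 11 lists was at 0 counts in all libraries. Their part in the levels of the transport genes was not tested.

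**Figure D5:**
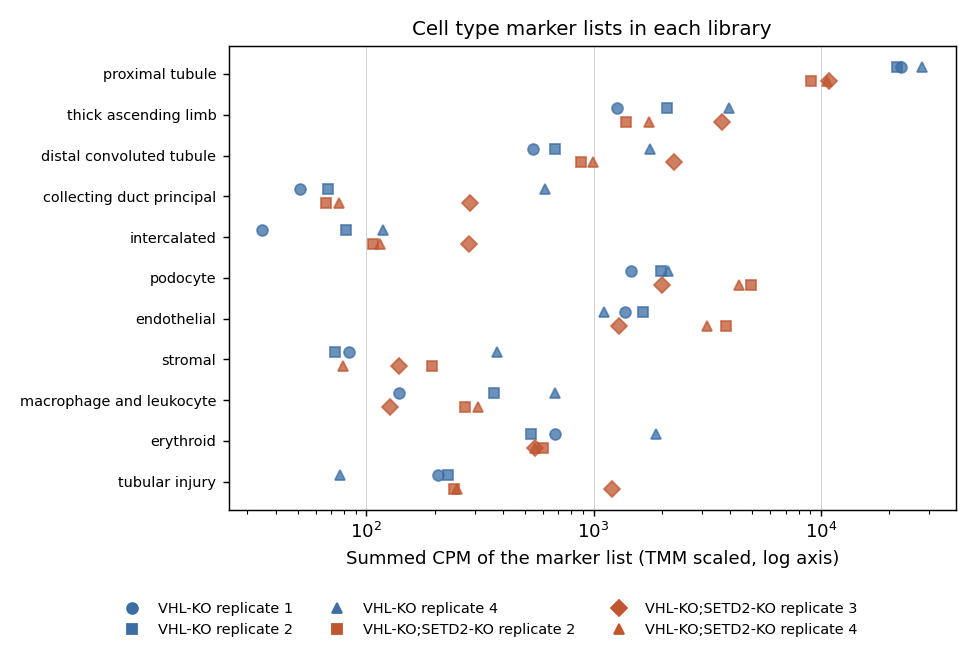
Summed CPM (TMM scaled, log axis) of 11 marker lists in each of the 6 libraries. The proximal tubule sums of the 3 VHL-KO;SETD2-KO libraries (9090 to 10800 CPM) lie below those of the 3 VHL-KO libraries (21600 to 28000 CPM), and VHL-KO;SETD2-KO replicate 3 is the highest of its label for the distal segments.

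Beyond the 9 genes, 59 other genes of the same families and pathways were examined, of which 46 were tested, 25 with a log2 fold change below 0 and 21 above 0. That split moved with single libraries and with the scaling. It was 33 and 13 without VHL-KO replicate 1, 30 and 16 without VHL-KO replicate 2 and 16 and 30 without VHL-KO replicate 4, and it was 19 and 27 both without the 20 highest genes and without mitochondrially encoded genes, 22 and 24 with voom, and 7 and 39 with scaling to proximal tubule markers. At the unadjusted threshold 6 were called lower, where the share of all tested genes was 4.68%, and 1 higher, where it was 2.65%, and 0 passed the adjusted threshold (lowest edgeR adjusted p = 0.625). With the VHL-KO;SETD2-KO replicates 2, 3 and 4 left out in turn, 1, 3 and 3 of these 46 were called lower, where the shares of all tested genes fell to 1.37%, 2.2% and 1.78%. Among 7 tested carbonic anhydrases outside the list, Car9, a tumour-associated membrane enzyme known as a HIF target, was called lower. It was at 16.3, 20.3 and 57.8 CPM in the VHL-KO and 4.40, 2.30 and 11.7 CPM in the VHL-KO;SETD2-KO libraries (log2 fold change -2.36, SE 0.74), without overlap. It remained called without VHL-KO replicate 4 (-1.59) and without VHL-KO;SETD2-KO replicate 3 (-1.95). The mitochondrial Car5b, the most abundant of these 7, was at 34.0 to 44.9 and 26.6 to 43.9 CPM (-0.18, SE 0.39).

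Of 10 tested sodium-proton exchangers and scaffolds, 2 were called lower and 0 higher in edgeR, where the shares of all tested genes were 4.68% and 2.65%. Slc9a3r1, the scaffold protein (NHERF1) that holds the Slc9a3 exchanger at the brush border, was at 196, 192 and 853 CPM against 117, 131 and 123 CPM (-1.74, SE 0.66), with no overlap. Slc9a8, an exchanger (NHE8) of endosomal and apical membranes, was at 97.5, 100.4 and 250.5 CPM against 42.8, 46.7 and 56.8 CPM (-1.62, SE 0.50), again without overlap. For both, VHL-KO replicate 4 was the highest library, and without it Slc9a3r1 was at -0.65 and Slc9a8 at -1.02, still called. Without VHL-KO;SETD2-KO replicate 3, Slc9a8 was called (-1.57) and Slc9a3r1 was not (-1.77, unadjusted p = 0.072 in edgeR). Without VHL-KO;SETD2-KO replicate 2 neither was called, where the share of all tested genes called lower was 1.37%. Without VHL-KO;SETD2-KO replicate 4 the list had 1 gene called lower, where the share was 1.78%. Pdzk1, another brush border scaffold and the most abundant of the list, was at 899, 863 and 1596 CPM against 493, 696 and 504 CPM (-0.99, SE 0.46, unadjusted p = 0.0644 in edgeR), separated but not called, and it was called without VHL-KO replicate 4 (-0.65, unadjusted p = 0.0274 in edgeR).

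Of 13 tested bicarbonate and anion exchangers, 1 was called in each direction in edgeR, where 4.68% of all tested genes were called lower and 2.65% higher. Slc26a1, a sulphate anion transporter of the basolateral proximal membrane and the most abundant of the list, was at 175, 128 and 334 CPM against 73.1, 67.7 and 94.0 CPM (-1.44, SE 0.48). It was at -0.96 and called without VHL-KO replicate 4, and without VHL-KO;SETD2-KO replicate 3 at -1.33 and not called (unadjusted p = 0.0637 in edgeR). No gene of the list was called lower without VHL-KO;SETD2-KO replicate 2. Slc26a4, the pendrin exchanger of intercalated cells, was at 3.57, 14.0 and 8.68 CPM against 14.6, 40.8 and 17.2 CPM (1.47, SE 0.62), and it is also among the intercalated cell markers. The groups of both were separate, those of Slc26a4 narrowly. The call of Slc26a4 was lost without VHL-KO replicate 4 (1.48, unadjusted p = 0.0815 in edgeR) and without VHL-KO;SETD2-KO replicate 3 (0.87, unadjusted p = 0.211 in edgeR). No gene of the list was called higher without VHL-KO replicate 1 or VHL-KO;SETD2-KO replicate 4. Slc4a2, a widely expressed anion exchanger, was at 39.5, 41.4 and 144 CPM against 46.5, 58.4 and 45.9 CPM (-0.58, SE 0.57), and its log2 fold change was 0.31 without VHL-KO replicate 4.

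With all 6 libraries edgeR called none of the 10 tested sodium pump subunits and partners, where 4.68% of all tested genes were called lower. DESeq2's Wald test called 2 of the 10 lower, where the share was 4.44%. Without a filter on low counts edgeR called 1 of the 10 lower, where the share was 3.69%. Fxyd2, the gamma subunit, was at 950.4, 912 and 3684 CPM in the VHL-KO libraries against 654, 976 and 662 CPM in the VHL-KO;SETD2-KO libraries (-1.27, SE 0.65), and the log2 fold change was -0.29 without VHL-KO replicate 4. It was the highest of all libraries in VHL-KO replicate 4, where Atp1b1 was the lowest, and like Atp1b1 it was the highest of its label in VHL-KO;SETD2-KO replicate 3.

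Among 6 tested other aquaporins, 5 had a log2 fold change below 0 and 2 were called lower in edgeR, where the share of all tested genes was 4.68%. Without VHL-KO replicate 4, 3 of these 6 were below 0, as Aqp2 turned to 2.09 and Aqp6, a channel of intercalated cells, to 2.42 (unadjusted p = 0.0384 in edgeR, called higher). With scaling to proximal tubule markers 2 of the 6 were below 0. Aqp7, an aquaglyceroporin of the proximal brush border, was at 12.2, 11.6 and 13.4 CPM against 6.31, 6.40 and 7.08 CPM (-0.91, SE 0.36), with VHL-KO replicate 4 close to the others. Aqp11, an intracellular aquaporin, was at 26.0, 29.4 and 62.7 CPM against 10.3, 17.9 and 14.0 CPM (-1.48, SE 0.48). The groups did not overlap for either gene. Both remained called without VHL-KO replicate 4, with Aqp11 at -0.98, and without VHL-KO;SETD2-KO replicate 3 the call of Aqp7 was lost (-0.88, unadjusted p = 0.0885 in edgeR). Without VHL-KO;SETD2-KO replicate 2 or replicate 4 neither was called, where the shares of all tested genes called lower were 1.37% and 1.78%. Without VHL-KO replicate 1 or replicate 2, 1 of the 6 was called lower, where the shares were 6.49% and 7.11%. The principal cell channels Aqp2 (2.73, 9.06 and 257 CPM against 8.49, 53.7 and 11.6 CPM) and Aqp3 (38.3, 31.5 and 113 CPM against 21.5, 43.0 and 23.2 CPM) overlapped and followed VHL-KO replicate 4 and VHL-KO;SETD2-KO replicate 3. Without VHL-KO replicate 4, 7 of 48 tested pathway genes were called lower and 5 higher, where the shares of all tested genes were 7.14% and 8.29%.

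Across the 6 libraries, log2 CPM of the transport genes fell into patterns that VHL-KO replicate 4 largely set. Pearson's r was 0.973 for Car14 and Aqp1, 0.934 for Car4 and Aqp1, 0.860 for Car4 and Car14, and 0.907 for Slc9a3 and Slc4a4. Without that library, over 5 libraries, these were 0.861, 0.748, 0.364 and 0.837. Slc4a4 and Aqp1 went from -0.597 to 0.962 and Car2 and Atp1b1 from 0.599 to 0.998 when it was left out, the latter pair being highest in VHL-KO;SETD2-KO replicate 3. The values describe 6 points that share labels, library depth and the length and GC pattern of VHL-KO replicate 4. Of 4564 genes with a mean log2 CPM of at least 5, the most similar to Car4 were Coasy and Serpinf2 (both 0.999), to Aqp1 Ptk2b (1.00) and Tbc1d16 (0.998), to Car14 Dcxr and Crat (both 0.999), to Slc4a4 A1cf and Eps8 (both 0.998), and to Slc9a3 Klhdc10 (0.992) and Tsc1 (0.986). For Car2 they were Acnat2 (0.997) and Wwc1 (0.972), for Car12 Polr3e (0.982) and Kbtbd11 (0.980), and for Atp1b1 Hao2 (0.990) and Peli2 (0.987). Without VHL-KO replicate 4 these pairs ran from 0.981 (Atp1b1 and Hao2) to 0.999 (Slc4a4 and A1cf, Aqp1 and Ptk2b). Each pair was picked as the highest of 4564 candidates over 6 points, so the high values are in part a result of that choice.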

How the data were processed

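PTEC RNA from mice labelled VHL-KO or VHL-KO;SETD2-KO was sequenced as directional paired-end libraries, 3 per label. The authors deposited raw counts per gene symbol, 1 column per library and 0 columns left unused. The submitters' processing notes name HISAT2 2.0.4 and GRCm38. The counting program, annotation and strand setting are not given in the sources used here.

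TMM factors and quasi-likelihood tests (edgeR 4.0.16, R 4.3.3) were obtained from the deposited counts for the 14611 of 46095 genes passing filterByExpr, with the label as the only factor and Benjamini-Hochberg adjustment over all tested genes. The study's DESeq2 (1.42.0) and limma 3.58.1 (voom) were alternatives. SE was the fold change over the root of F, and log2 CPM used a prior count of 2. The fits were tested on simulated data. Lengths, GC content (94.5% of tested genes) and positions came from GENCODE vM21, and promoters from RefSeq (GRCm38.p6), which matched 8 of the 9 genes, not Car2. The limit of 3 counts covers counting error only, because PCR reads carried no molecular identifiers.

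Named were all 9 genes, Setd2 and Vhl, pathway genes with an unadjusted p under 0.05 or among the 2 most abundant of a list, the 2 most abundant proximal markers, and the 2 genes most correlated with each tested gene. The 9 genes and all lists were chosen with earlier results of these data known. A gene that the naming rule picks is not reported here. Xist was chosen after its values were seen.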

Additional observations from a re-analysis of the deposited data

How the results depend on the processing

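The log2 fold changes of Car4, Car14 and Aqp1 were below 0 under all 18 alternatives (-2.19 to -0.60, -1.84 to -0.18 and -1.62 to -0.09). Car2 turned above 0 without the 20 highest genes in library sizes (0.24), without mitochondrially encoded genes (0.30) and without a filter (0.0109). Scaling to proximal tubule markers put Slc9a3 at 0.71, Slc4a4 at 0.82, Car2 at 1.17, Car12 at 0.82 and the median of the 8 genes at 0.76, while it moved the median of all genes to 1.23, relative to which the 8 genes were at -0.47. The median of all genes moved to 0.28, 0.34, 0.13 and 0.11 without the 20 highest genes, without mitochondrially encoded genes, with voom and with the block, against which the 8 genes were at -0.48, -0.50, -0.47 and -0.56. Slc4a4 was at 0.15 with voom. With single libraries left out, Slc9a3 ranged from -0.84 to 0.032, Slc4a4 from -0.80 to 0.13, Car2 from -0.25 to 0.10 (0.10 and 0.04 without VHL-KO;SETD2-KO replicates 2 and 4) and Atp1b1 from -0.22 to 0.47. Atp1b1 was also at -0.52 without VHL-KO replicate 4 and VHL-KO;SETD2-KO replicate 3 together, and at -0.0601 in DESeq2 without VHL-KO replicate 4.

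Over all genes, edgeR called 387 higher and 684 lower at the unadjusted threshold and 1 at the adjusted threshold. The split was 738 and 354 without the 20 highest genes, and 839 and 303 without mitochondrially encoded genes. DESeq2 called 49 adjusted and 1123 lower. No filter gave 2 adjusted and 634 higher, and at least 10 counts in every library gave 0 adjusted in edgeR with 355 higher and 606 lower unadjusted. Leaving out single libraries gave 0 to 1 adjusted, 179 to 1243 higher and 206 to 1078 lower. Leaving out VHL-KO replicate 4 and VHL-KO;SETD2-KO replicate 3 together gave 2474, 1976 and 1531, the length and GC offset 2, 864 and 1301, and DESeq2 without VHL-KO replicate 4 1179, 1485 and 1125. The last 3 were chosen after seeing the data, and the cause of these changes was not tested.

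Replicate numbers 2 and 4 occur under both labels, and deviations of same-numbered libraries from their group means correlated at 0.165 and -0.319. The VHL-KO mean includes VHL-KO replicate 4, which stood apart, so these values cannot decide whether same-numbered libraries share more than a number. A fit with that number as a block (replicate block) called 93 genes higher and 54 lower. In it none of the 8 transport genes was called, and Slc9a3 and Slc4a4 were at 0.17 and 0.44. With totals of 11168552 to 17883466 counts, Car15 was the sole gene of the 9 below the filter on low counts.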
